A study of Mus musculus with 6 samples.

Results

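The transcripts of 10 integrin subunits of leukocytes were examined in tumor-associated macrophages (TAMs): Itgb2, Itgal, Itgam, Itgb1, Itga4, Itga5, Itga6, Itgb7, Itgav and Itgb5. The genes were listed by symbol, with earlier results of these data known, and matched to Ensembl identifiers. The rule itself used no measured value. They are 10 of the 55421 genes of the count table, and all 10 passed the expression filter that left 14469 genes for testing. TAMs, sorted as CD11b+F4/80+ cells, came from tumors labelled M17, where the study describes the fibrosarcoma line MC17-51, 15 days after implantation into Pdcd1f/f mice or Pdcd1f/fLysMcre mice, and 3 RNA-seq libraries were made for each genotype. Both genotypes carry floxed alleles of Pdcd1, the gene of the inhibitory receptor PD-1, and Pdcd1f/fLysMcre mice also carry Cre under the lysozyme (LysM) promoter, which is active in myeloid cells and not in macrophages alone. The comparison asks how the TAM transcriptome differs when PD-1 is deleted in myeloid cells. Pdcd1f/f mice carry no Cre by their label, so the deletion and Cre itself cannot be told apart. The labels do not say whether a library held cells of 1 mouse or of several, so the p-values measure the spread between these libraries. A gate on live CD45+CD11b+F4/80+Ly6G- cells is described in the study for TAMs of Shp2 mice, and the labels of the present libraries name CD11b and F4/80.

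Integrins are receptors for matrix proteins and for counter-receptors on other cells, and each is a heterodimer of an α and a β subunit. Leukocytes carry the β2 integrins, which include αLβ2 (LFA-1) and αMβ2 (Mac-1), together with α4 integrins that bind VCAM-1 or MAdCAM-1, β1 integrins that bind fibronectin and laminin, and αv integrins that bind proteins with an RGD motif. On macrophages they serve attachment, migration, podosome formation and the uptake of complement-coated particles and apoptotic cells, after activation from inside the cell by talin, kindlin-3 and the GTPase Rap1.

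Of the 10 subunits, Itgav alone was past the threshold, rising to 1.26-fold in Pdcd1f/fLysMcre TAMs. Itgb5, which encodes a β partner of αv, had a fold of 0.780 and stood just outside the threshold (adjusted p = 0.0513, edgeR). The β2 subunit transcript Itgb2 had a fold of 1.01, with a 95% interval from 0.906 to 1.13. Thus 1 of 10 subunits was past an adjusted p of 0.05 in edgeR's quasi-likelihood test, against 5.43% of all genes tested. The other 9 did not pass, and 4 of the 10 had an unadjusted p under 0.05, against 24.2% of all genes. In 3 of the 10 the normalized counts of the genotypes did not overlap, against 27.2% of all genes. These shares rest on 10 genes and are given as counts, without a test of the list.

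**Figure D1:**
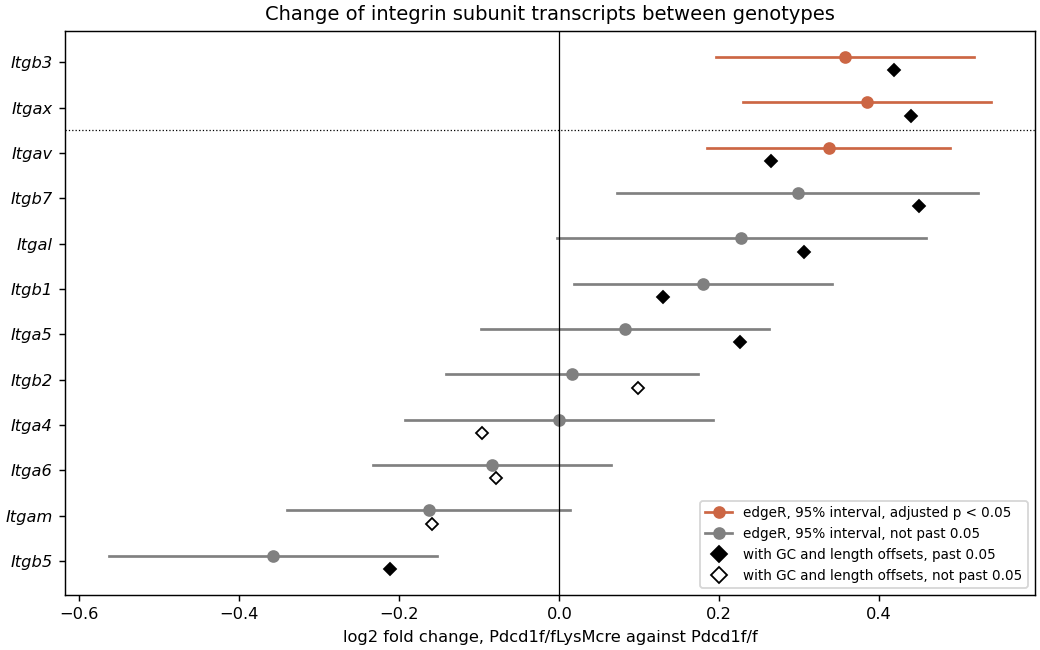
Log2 fold change of each integrin subunit in Pdcd1f/fLysMcre against Pdcd1f/f TAMs (x axis), with the edgeR estimate and its 95% interval as circle and bar and the estimate after GC and length offsets as diamond. Below the dotted line, where the 10 subunits stand, the interval of Itgav runs from 0.18 to 0.49 and that of Itgb5 from -0.56 to -0.15, while Itgax and Itgb3 above the line belong to the other integrin subunits.

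Promoter sequences are shown for 3 subunits: Itgav, which was past the threshold, its partner Itgb5, whose fold had the opposite direction, and Itgam, whose protein CD11b was used to sort the cells. They are RefSeq sequences on GRCm38.p6, from 250 bases before to 50 bases after the gene's start on the plus strand, at chr2:83724147-83724446 for Itgav, chr16:33829415-33829714 for Itgb5 and chr7:128062390-128062689 for Itgam. Capitals mark GAGGAA or TTCCTC, the core bound by PU.1 and related ETS factors of myeloid cells, and GGGCGG or CCGCCC, the GC box, on either strand.
Itgav: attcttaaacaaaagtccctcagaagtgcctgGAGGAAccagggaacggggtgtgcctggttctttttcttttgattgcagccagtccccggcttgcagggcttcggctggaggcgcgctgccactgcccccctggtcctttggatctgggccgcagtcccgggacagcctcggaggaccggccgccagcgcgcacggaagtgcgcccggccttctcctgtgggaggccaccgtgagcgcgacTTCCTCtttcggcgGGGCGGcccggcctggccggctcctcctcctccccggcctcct
Itgb5: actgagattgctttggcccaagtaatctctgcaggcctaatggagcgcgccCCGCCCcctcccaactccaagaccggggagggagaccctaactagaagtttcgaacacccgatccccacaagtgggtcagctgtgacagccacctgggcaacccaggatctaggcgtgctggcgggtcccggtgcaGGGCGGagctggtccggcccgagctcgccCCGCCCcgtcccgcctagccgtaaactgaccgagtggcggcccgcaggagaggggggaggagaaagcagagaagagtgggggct
Itgam: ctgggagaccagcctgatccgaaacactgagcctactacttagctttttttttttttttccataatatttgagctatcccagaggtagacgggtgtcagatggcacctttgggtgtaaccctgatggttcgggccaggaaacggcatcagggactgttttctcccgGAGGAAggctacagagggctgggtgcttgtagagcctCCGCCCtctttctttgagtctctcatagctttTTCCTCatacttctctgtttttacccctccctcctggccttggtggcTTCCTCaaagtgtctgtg
The Itgam window held 3 matches to GAGGAA and 1 to GGGCGG, the Itgav window 2 and 1, and the Itgb5 window 0 and 3. No marked match overlapped another in these windows. Entries were found for 7 of the 10 subunits. GAGGAA occurred in 5 of the 7, in all but Itga4 and Itgb5, and in 28.3% of 32851 promoter windows of the same length. GGGCGG occurred in 6 of the 7, in all but Itgb7, and in 35.7% of the windows. The 7 windows held neither the TATA box TATAAA nor TTTATA, which occur in 13.6% of windows, and neither the AP-1 site TGACTCA nor TGAGTCA, in 5.2%. The matches describe letters of the reference sequence and say nothing of binding in TAMs.

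Total counts per library ranged from 41833823 to 51417209. Pdcd1 had raw counts of 10, 12 and 15 in Pdcd1f/f and of 7, 16 and 11 in Pdcd1f/fLysMcre TAMs, so the counts per gene did not show the deletion (adjusted p = 0.771, edgeR). Lyz2, the locus of the LysM promoter, was at 207974 to 225226 normalized counts in Pdcd1f/f and at 405 to 465 in Pdcd1f/fLysMcre libraries, which separates the genotypes as labelled. The low Lyz2 transcript goes along with Cre and the Pdcd1 deletion, and the 3 cannot be told apart in any result here. Summed Y-linked transcripts of Ddx3y, Eif2s3y, Kdm5d and Uty were at 1545 to 1914 and at 6267 to 7233 normalized counts, while Xist, made in female cells, was at 17318 to 26511 and at 8530 to 13137. Transcripts of both sexes were thus counted in every library and separated the genotypes, so the sex of the source mice and the genotype cannot be told apart in any result here. Markers of the sorted type were present, and the 6 macrophage markers summed to 7046 to 7104 CPM (counts scaled to a common library total) in Pdcd1f/f and 5896 to 5996 CPM in Pdcd1f/fLysMcre libraries. Of these markers Adgre1, the gene of F4/80, Csf1r and Mrc1 were lower past the threshold, with log2 fold changes of -0.38, -0.32 and -0.31. The remaining markers Ptprc, Cd68 and Fcgr1 had log2 fold changes of 0.11, -0.064 and -0.21 and did not pass (adjusted p = 0.359, 0.565 and 0.0691, edgeR). Of other cell types, the neutrophil marker Ly6g had at most 3 counts in any library, whereas S100a8 had 994 to 1632, Csf3r 1582 to 2482, Mmp8 1688 to 2392 and Mmp9 146918 to 167662. The T cell genes Cd3d, Cd3e and Cd3g had at most 8, 11 and 8 counts, and Cd4 had 512 to 648.

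The libraries of each genotype deviated from one another with base composition, which touches every value below. Across genes, the deviation from the genotype mean correlated with GC content at a Spearman rho of -0.58, 0.35 and 0.51 in replicates 1, 2 and 3 of Pdcd1f/f and of 0.12, -0.49 and 0.50 in those of Pdcd1f/fLysMcre. Since the deviations are taken from a mean of 3 libraries they balance, and replicates 2 and 3 of Pdcd1f/fLysMcre lay equally far from 0. Itga4, Itgav, Itgb1, Itga6 and Itgam, with a GC content of 41.1% to 48.9%, were all highest in replicate 1 among the Pdcd1f/f libraries, and 4 of these 5, all but Itga4, were highest in replicate 2 among the Pdcd1f/fLysMcre libraries. Itgb2, Itgal, Itgb5, Itga5 and Itgb7, with 53.1% to 58.0%, were all lowest in Pdcd1f/f replicate 1 and in Pdcd1f/fLysMcre replicate 2. For this reason a second fit gave each library offsets fitted to the GC content and length of the genes, and its values are given for the 10 subunits. There 19% of all genes were past the threshold, 11.2% higher and 7.76% lower. In that fit 6 of the 10 subunits were past it, 5 higher and 1 lower. The offsets were fitted to deviations from the mean of all 6 libraries, so they also take out trends with GC content between the genotypes. They raised the log2 fold changes of all 5 subunits with the highest GC content. They lowered those of Itga4, Itgav and Itgb1, and those of Itga6 and Itgam hardly moved. Under other settings 2 of 10 passed with DESeq2 (11.1% of all genes), with RLE size factors (5.4%) and by library size alone (5.58%), 3 over all genes with at least 1 count (7.32%) and 1 over genes with at least 10 counts in every library (6.2%). With 1 library left out, 3 passed without Pdcd1f/f replicate 1 (21.6%), 1 without Pdcd1f/fLysMcre replicate 3 (3.56%) and 0 without Pdcd1f/f replicate 2 (1.51%), Pdcd1f/f replicate 3 (2.38%), Pdcd1f/fLysMcre replicate 1 (1.51%) or Pdcd1f/fLysMcre replicate 2 (2.5%).

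Expression levels within a genotype were compared per length, as RPKM (counts per kilobase of exon, scaled to the library total). Itgb1 was the most abundant subunit transcript in Pdcd1f/f TAMs, at 212 ± 11.9 RPKM (SD, n = 3), followed by Itgb2 at 151 ± 10.9 and Itgam at 79.3 ± 5.86. The common partners of several α chains thus stood at the top of the order. Itga5 was at 67.1 ± 4.88, Itgb5 at 54.0 ± 6.81 and Itgav at 32.6 ± 2.02 RPKM. Itga6, at 18.2 ± 1.01, and Itgb7, at 17.6 ± 1.87 RPKM, overlapped between libraries and could not be ordered. The lowest were Itga4 at 6.83 ± 0.641 and Itgal, the LFA-1 α chain, at 2.85 ± 0.317 RPKM. All other neighbours in this order had separate ranges in Pdcd1f/f libraries.

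In Pdcd1f/fLysMcre TAMs the ends of the order were the same, with Itgb1 at 237 ± 16.6 RPKM (SD, n = 3) and Itgb2 at 151 ± 8.14 at the top, and Itga4 at 6.75 ± 0.591 and Itgal at 3.29 ± 0.327 at the bottom. Itga5 at 70.2 ± 6.67 and Itgam at 69.9 ± 5.63 RPKM overlapped, as did Itgb5 at 41.6 ± 2.57 and Itgav at 40.7 ± 1.88. Both pairs had separate ranges in the Pdcd1f/f libraries. Itgb7 at 21.4 ± 2.60 stood above Itga6 at 16.9 ± 0.773 RPKM in every Pdcd1f/fLysMcre library. Every value is a level of RNA over the whole library, in which fewer cells with a transcript and less RNA per cell cannot be told apart.

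**Figure D2:**
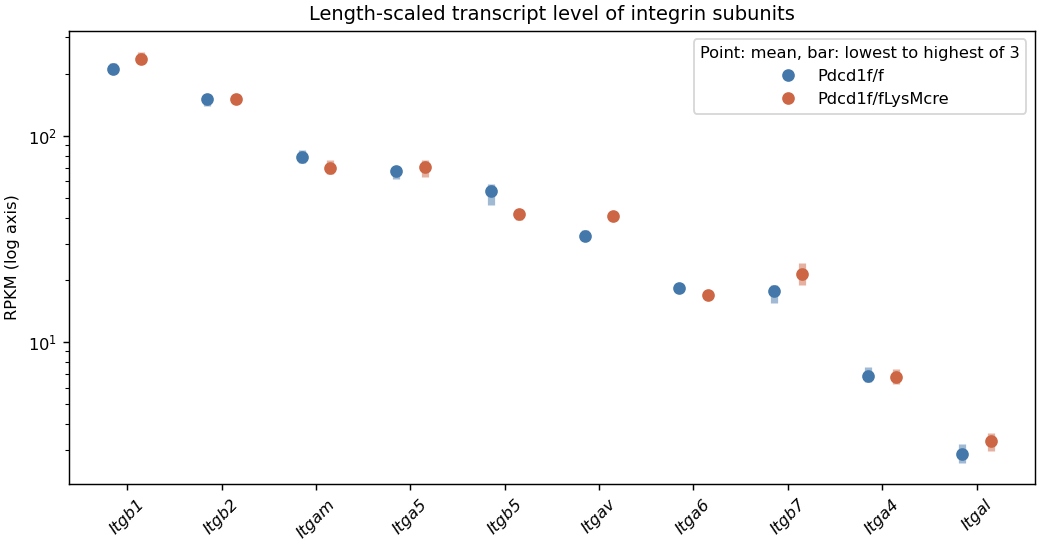
Length-scaled level of each integrin subunit transcript (y axis, RPKM on a log axis) in Pdcd1f/f and Pdcd1f/fLysMcre TAMs, with the mean as point and the lowest to highest of 3 libraries as bar. Levels run from 212 RPKM for Itgb1 to 2.85 RPKM for Itgal in Pdcd1f/f TAMs, and the points of Itgb5 and Itgav lie apart in Pdcd1f/f and together in Pdcd1f/fLysMcre.

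The β2 family carries the adhesion of leukocytes to ICAM-1 and their binding of complement fragments. Itgb2, the shared β chain, at chr10:77530252-77565708 of GRCm38, had normalized counts of 19884, 22083 and 23006 in Pdcd1f/f and of 21917, 20854 and 22831 in Pdcd1f/fLysMcre libraries, here as below in the order of replicates 1, 2 and 3. The libraries of the genotypes overlapped throughout, and the log2 fold change was 0.016 with a standard error of 0.071 (adjusted p = 0.912, edgeR), or 0.098 with the offsets (adjusted p = 0.0942, with 0.0942 to 0.993 over all alternatives). Itgam (chr7:128062640-128118491) encodes CD11b, the αM chain of the complement receptor Mac-1. Its normalized counts were 20169, 17385 and 18538 in Pdcd1f/f and 16227, 18314 and 15469 in Pdcd1f/fLysMcre libraries. The log2 fold change of Itgam was -0.16 with a standard error of 0.080 (adjusted p = 0.237, edgeR), and it was -0.16 with the offsets as well. Cells without CD11b on their surface were not collected. The 8 neutrophil markers summed to 3459 to 3825 CPM in Pdcd1f/f and 3042 to 3506 CPM in Pdcd1f/fLysMcre libraries, of which Mmp9 held 3315 to 3685 and 2926 to 3386 CPM. Of the 8, Mmp8 and Csf3r were lower past the threshold, with log2 fold changes of -0.48 and -0.51 (adjusted p = 0.00393 and 0.00686, edgeR). Retnlg and Mmp9 had log2 fold changes of -0.95 and -0.13, and S100a8, S100a9 and Cxcr2 of 0.23, 0.12 and 0.030, none of them past it. The part of neutrophils in Itgam was not tested.

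Itgal (chr7:127296260-127335138) encodes the LFA-1 α chain, which is more typical of lymphocytes and monocytes than of tissue macrophages. It had 794, 851 and 991 normalized counts in Pdcd1f/f and 1035, 930 and 1115 in Pdcd1f/fLysMcre libraries. Replicate 2 of Pdcd1f/fLysMcre fell within the range of the Pdcd1f/f libraries, and the others were above it. The log2 fold change of 0.23 with a standard error of 0.10 did not pass (adjusted p = 0.212, edgeR), whereas with the GC and length offsets it was 0.31 and did (adjusted p = 0.00486, with 0.00332 to 0.492 over all alternatives). The 8 T cell markers summed to 13.0 to 14.7 CPM in Pdcd1f/f and 11.9 to 14.2 CPM in Pdcd1f/fLysMcre libraries, of which Cd4 held 12.1 to 13.8 and 10.7 to 12.8 CPM. The 6 NK cell markers summed to 0.928 to 1.58 and 0.914 to 1.51 CPM, and both sums overlapped between the genotypes. Of the T cell genes, Trac was at 0.554 to 0.693 CPM in Pdcd1f/f and 0.732 to 1.19 CPM in Pdcd1f/fLysMcre libraries, without overlap and higher along with Itgal (log2 fold change 0.50, adjusted p = 0.311, edgeR). The B cell gene Cd79b was at 3.50 to 4.23 CPM in Pdcd1f/f and 2.45 to 2.96 CPM in Pdcd1f/fLysMcre libraries, without overlap and lower where Itgal had its higher values. Ms4a1 had 2 to 20 counts, and Cd79a and Pax5 had at most 2 and 0. The part of lymphocytes in Itgal was not tested.

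The β1 family binds matrix and VCAM-1. Itgb1, its shared chain, at chr8:128685654-128733200, had 43047, 39569 and 38971 normalized counts in Pdcd1f/f and 44878, 49813 and 42825 in Pdcd1f/fLysMcre libraries. The genotypes overlapped only through Pdcd1f/f replicate 1 and Pdcd1f/fLysMcre replicate 3, and the log2 fold change was 0.18 with a standard error of 0.073 (adjusted p = 0.164, edgeR). Without Pdcd1f/f replicate 1 the log2 fold change of Itgb1 was 0.22 and past the threshold (adjusted p = 0.0431, against 21.6% of all genes past it in that fit), and with the offsets it was 0.13 and past it (adjusted p = 0.0327). Its adjusted p ran from 0.0138 to 0.429 over all alternatives.

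Among the α partners of β1, Itga5 (chr15:103344286-103366763) encodes the α chain of the classical fibronectin receptor. It had 14226, 16215 and 16187 normalized counts in Pdcd1f/f and 16656, 14904 and 17726 in Pdcd1f/fLysMcre libraries. The ranges overlapped, with a log2 fold change of 0.082 and a standard error of 0.081 (adjusted p = 0.569, edgeR). With the offsets the value was 0.23 and past the threshold (adjusted p = 0.000779, with 0.000779 to 0.923 over all alternatives). Itga5 has a GC content of 57.3%, among the highest of the 10.

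Itga4 (chr2:79255426-79333123) encodes the α chain that binds VCAM-1 with β1 and MAdCAM-1 with β7. It had 4962, 4265 and 4223 normalized counts in Pdcd1f/f and 4909, 4438 and 4082 in Pdcd1f/fLysMcre libraries. These ranges nearly coincided, and the log2 fold change was -0.00026 with a 95% interval from -0.19 to 0.19 (adjusted p = 0.999, edgeR), or -0.097 with the offsets (adjusted p = 0.177, with 0.156 to 0.9996 over all alternatives). Itga6 (chr2:71745616-71858416), the α chain of laminin receptors, had 8169, 7524 and 7399 normalized counts in Pdcd1f/f and 7230, 7654 and 6870 in Pdcd1f/fLysMcre libraries. Its ranges overlapped through Pdcd1f/fLysMcre replicate 2, and the log2 fold change was -0.084 with a standard error of 0.067 (adjusted p = 0.471, edgeR), or -0.079 with the offsets. Itga4 and Itga6 were past the threshold in 0 of the 15 alternative fits.

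Itgb7 (chr15:102215995-102231944) encodes the β chain that pairs with α4 in the gut-homing receptor of leukocytes and with αE. Its normalized counts were 2011, 2398 and 2469 in Pdcd1f/f and 2809, 2499 and 3132 in Pdcd1f/fLysMcre libraries. Every Pdcd1f/fLysMcre library was above every Pdcd1f/f library, which held for 14.1% of all genes tested. The log2 fold change of 0.30 with a standard error of 0.10 did not pass (adjusted p = 0.112, edgeR). With the GC and length offsets it was 0.45, the highest of the 10 in that fit, and past the threshold (adjusted p = 3.46e-06, with 3.46e-06 to 0.265 over all alternatives). The dendritic cell markers, 6 genes of which Xcr1 had at most 3 counts, summed to 5.47 to 7.28 CPM in Pdcd1f/f and 6.81 to 8.30 CPM in Pdcd1f/fLysMcre libraries, and 3.06 to 3.90 and 2.75 to 4.14 CPM of this was Ccr7. Flt3 was at 0.693 to 1.27 CPM in Pdcd1f/f and 1.32 to 1.77 CPM in Pdcd1f/fLysMcre libraries, without overlap. Flt3 and Zbtb46 had log2 fold changes of 0.67 and 0.69, in the direction of Itgb7, and did not pass (adjusted p = 0.137 and 0.120, edgeR). Itgae, the αE partner of β7, went the other way, from 0.741 to 1.19 CPM to 0.502 to 0.875 CPM with overlap (log2 fold change -0.29, adjusted p = 0.591, edgeR). The part of dendritic cells in Itgb7 was not tested.

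**Figure D3:**
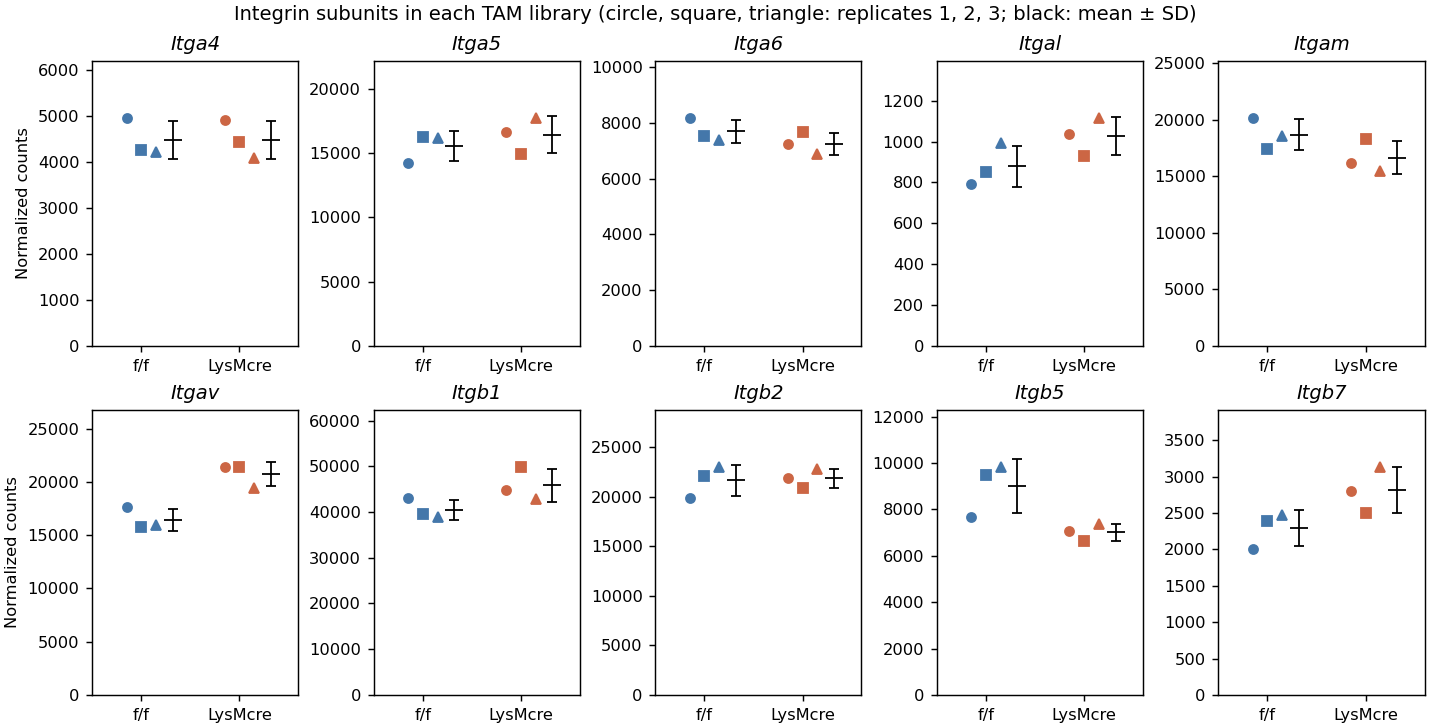
Normalized counts (y axis, from 0) of the 10 integrin subunits in each TAM library, by genotype, with replicates 1, 2 and 3 as circle, square and triangle and the mean ± SD of 3 libraries in black. The genotypes lie apart for Itgav, Itgb5 and Itgb7 and overlap for the other 7.

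Itgav (chr2:83724397-83806916) encodes the αv chain, which pairs with several β chains to bind vitronectin, fibronectin and osteopontin. It had 17604, 15752 and 15990 normalized counts in Pdcd1f/f and 21391, 21395 and 19440 in Pdcd1f/fLysMcre libraries. All 3 Pdcd1f/fLysMcre libraries were above all Pdcd1f/f libraries, which held for 14.1% of all genes tested. Itgav rose by a log2 fold change of 0.34 with a standard error of 0.068 (adjusted p = 0.0192, edgeR), a 26.3% increase with a 95% interval for the fold from 1.14 to 1.40. With the offsets the log2 fold change was 0.26 (adjusted p = 0.000131). The call was kept without Pdcd1f/f replicate 1 (adjusted p = 0.00210, edgeR) or Pdcd1f/fLysMcre replicate 3 (0.0288). It was lost without Pdcd1f/f replicate 2 (adjusted p = 0.130), Pdcd1f/f replicate 3 (0.0785), Pdcd1f/fLysMcre replicate 1 (0.117) or Pdcd1f/fLysMcre replicate 2 (0.0667), while the log2 fold change stayed between 0.31 and 0.38. Its adjusted p ran from 6.59e-05 to 0.130 over all alternatives.

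Itgb5 (chr16:33829665-33949338) encodes the β5 chain, which pairs with αv alone in a vitronectin receptor used by phagocytes to take up apoptotic cells. Its normalized counts were 7695, 9508 and 9828 in Pdcd1f/f and 7063, 6627 and 7369 in Pdcd1f/fLysMcre libraries. Every Pdcd1f/fLysMcre library was below every Pdcd1f/f library, which held for 13.1% of all genes, and Pdcd1f/f replicate 1 was the nearest to them. The log2 fold change was -0.36 with a standard error of 0.092 and missed the threshold (adjusted p = 0.0513, edgeR). DESeq2 gave the same log2 fold change with an adjusted p of 0.00653, where 11.1% of all genes were past the threshold. Without Pdcd1f/f replicate 1 it was -0.47 (adjusted p = 0.000593, edgeR), and with the offsets -0.21 (adjusted p = 0.00252). Over the 15 alternatives Itgb5 was past the threshold in 9, and its adjusted p ran from 1.21e-05 to 0.237.

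Without Pdcd1f/f replicate 1 and Pdcd1f/fLysMcre replicate 2, the libraries with a negative rho, 5 of the 10 subunits were past the threshold, against 26.2% of all genes in that fit. They were Itgav with a log2 fold change of 0.36, Itgb1 with 0.16 and Itgb7 with 0.28, all higher, and Itgb5 with -0.42 and Itgam with -0.18, both lower. Itgav and Itgb5 were thus at least as far from 0 as with all libraries. This fit, with 2 libraries a genotype, was chosen after the data were seen.

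Since subunits work in pairs, the ratio of α to β transcripts per length was computed within each library for 9 known pairs. The ratio of Itgav to Itgb5 was 0.757, 0.548 and 0.538 in Pdcd1f/f and 1.002, 1.068 and 0.872 in Pdcd1f/fLysMcre TAMs. The mean ratio was 0.614 ± 0.123 (SD, n = 3) and 0.981 ± 0.0993 (SD, n = 3), a fold of 1.61, and the genotypes did not overlap. The αv transcript was thus less abundant per length than its β5 partner in every Pdcd1f/f library and close to it in the Pdcd1f/fLysMcre libraries. The 2-sided exact permutation test gave p = 0.1, the smallest that 3 against 3 libraries allow, and 0.225 after adjustment over the 9 pairs. The ratio combines the values of Itgav and Itgb5 given above and is no separate evidence for them. All ratios were computed without the GC and length offsets, and Itgav and Itgb5 differ in GC content (43.5% and 57.0%). With the offsets the log2 fold changes of both genes were smaller in size, at 0.26 for Itgav and -0.21 for Itgb5.

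Against Itgb1, the ratio of Itgav was 0.154 ± 0.00254 (SD, n = 3) in Pdcd1f/f and 0.172 ± 0.00896 (SD, n = 3) in Pdcd1f/fLysMcre libraries, without overlap. Itga6 relative to Itgb1 went the other way, from 0.0859 ± 0.000087 (SD, n = 3) to 0.0716 ± 0.00186 (SD, n = 3), also without overlap. The ratio of Itgal to Itgb2 was 0.0188 ± 0.00108 (SD, n = 3) and 0.0218 ± 0.00100 (SD, n = 3), with the Pdcd1f/fLysMcre libraries all higher. Each of these had an exact permutation p of 0.1, adjusted 0.225, so none passed. The ratios of Itgam to Itgb2, of Itga4 and Itga5 to Itgb1 and of Itga4 to Itgb7 overlapped between the genotypes.

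**Figure D4:**
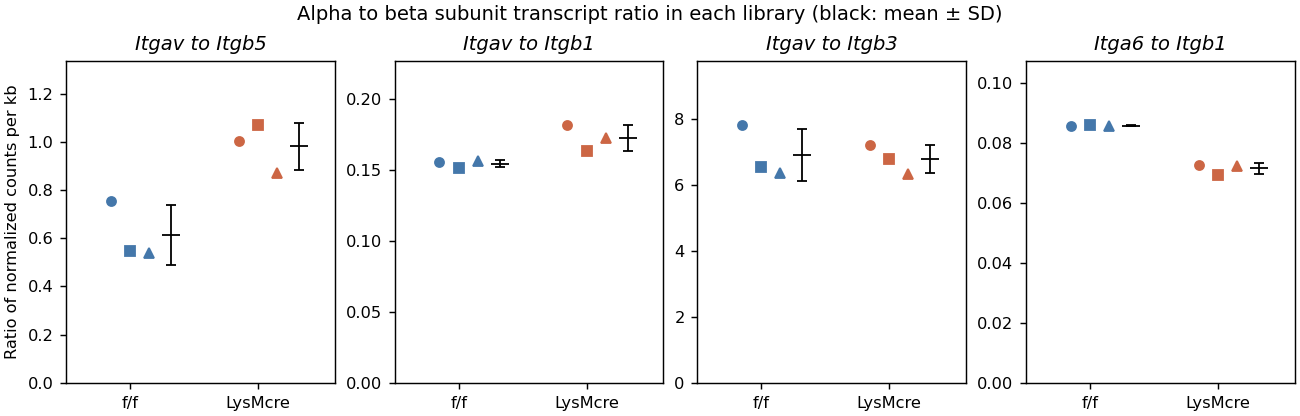
Ratio of α to β subunit transcripts, as normalized counts per kilobase (y axis, from 0), in each TAM library for 4 of the 9 pairs, with replicates 1, 2 and 3 as circle, square and triangle and the mean ± SD of 3 libraries in black. Itgav to Itgb5 moves from 0.614 to 0.981 and Itgav to Itgb3 stays at 6.91 and 6.79.

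Among 17 other integrin subunits, 12 had counts enough to be tested and the 5 others had at most 13 counts in any library. Past the threshold, 2 of the 12 were higher and 0 lower, against 2.42% and 3.01% of all genes. With the offsets 4 were higher and 0 lower (11.2% and 7.76% of all genes), and without Pdcd1f/f replicate 1 and Pdcd1f/fLysMcre replicate 2 together 3 and 1 (26.2% in either direction). Itgb3, the β chain that joins αv in the osteopontin and vitronectin receptor of macrophages and osteoclasts, had 1237, 1321 and 1380 normalized counts in Pdcd1f/f and 1628, 1727 and 1680 in Pdcd1f/fLysMcre libraries. It rose by a log2 fold change of 0.36 with a standard error of 0.073 (adjusted p = 0.0192, edgeR). Itgax, which encodes CD11c, the αX partner of β2, had 1606, 1738 and 1789 against 2271, 2213 and 2206 normalized counts. It rose by 0.38 with a standard error of 0.070 (adjusted p = 0.0108, edgeR). Both genes were higher in every Pdcd1f/fLysMcre library, as were 5 of these 12 subunits and 14.1% of all genes tested. They kept a log2 fold change of at least 0.29 in the fits tried. Itga9, named because it had the highest mean count of these 12, was at 6141 ± 200 (SD, n = 3) and 5469 ± 181 normalized counts (SD, n = 3) and did not pass (log2 fold change -0.16, adjusted p = 0.132, edgeR).

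The call of Itgb3 was lost without Pdcd1f/f replicate 2 (adjusted p = 0.116, edgeR), Pdcd1f/fLysMcre replicate 1 (0.0829), replicate 2 (0.0668) or replicate 3 (0.0593). That of Itgax was lost without Pdcd1f/f replicate 2 (0.0708) or Pdcd1f/fLysMcre replicate 1 (0.0792). The ratio of Itgav to Itgb3 was 6.91 ± 0.790 (SD, n = 3) in Pdcd1f/f and 6.79 ± 0.431 (SD, n = 3) in Pdcd1f/fLysMcre libraries, which overlapped (exact permutation p = 0.8). Itgb3 relative to Itgb5 per length was 0.0883 ± 0.00735 (SD, n = 3) and 0.144 ± 0.0109 (SD, n = 3), a fold of 1.63 with an exact permutation p of 0.1. The pairs with Itgb3 were chosen after its values were seen. Itgb3 is also a platelet gene, and the 5 platelet markers summed to 92.6 to 96.8 CPM in Pdcd1f/f and 156 to 182 CPM in Pdcd1f/fLysMcre libraries. Nearly all of this was Ppbp, with 92.0 to 96.3 and 156 to 181 CPM, while Itga2b, the α partner of β3 on platelets, had 13 to 27 counts a library, and Gp9, Gp5 and Gp1ba at most 1, 4 and 4. The part of platelets in Itgb3 was not tested.

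Activation of integrins from inside the cell was represented by 14 genes, of which 13 were tested. None was past the threshold in edgeR (5.43% of all genes), 5 of 13 had an unadjusted p under 0.05 (24.2% of all genes), and 3 of 13 passed in DESeq2 (11.1% of all genes). These were Rap1a and Rap1b, the GTPases that switch integrins on, and Apbb1ip, which encodes RIAM, the link between Rap1 and talin. In edgeR their log2 fold changes were 0.25, 0.24 and 0.31 (adjusted p = 0.0513, 0.0791 and 0.0670), and each was higher in every Pdcd1f/fLysMcre library, as were 14.1% of all genes. With the offsets the values were 0.16, 0.16 and 0.21, all past the threshold, and 4 of 13 activators passed (19% of all genes). Without Pdcd1f/f replicate 1 alone 4 of 13 passed (21.6%), among them Rap1a, Rap1b and Apbb1ip (adjusted p = 0.0125, 0.0108 and 0.00246, edgeR). In each other fit that left out 1 library 0 passed. With the replicate block 1 passed, Apbb1ip (0.0399). Over the 15 alternatives Rap1a, Rap1b and Apbb1ip passed in 7, 6 and 7. The genes of talin and kindlin-3, Tln1 and Fermt3, had log2 fold changes of -0.049 and -0.26 and overlapped between the genotypes, and the sign of Tln1 turned with the offsets, to 0.087. Fermt3 was lower past the threshold in 3 of the 15 alternatives, namely over all genes with at least 1 count (adjusted p = 0.00880, edgeR), without Pdcd1f/f replicate 1 (0.0179) and without Pdcd1f/f replicate 1 and Pdcd1f/fLysMcre replicate 2 together (0.00411). In the last fit 6 of the 13 activators were past the threshold, 4 higher and 2 lower (Fermt3 and Rasgrp2), against 26.2% of all genes. Rap1a, Rap1b, Apbb1ip, Tln1, Fermt3 and Rasgrp2 fall outside the rule for named genes and were chosen after their values were seen.

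All 7 inhibitors of integrin activation were tested. With all libraries 0 were past the threshold in edgeR (5.43% of all genes) or DESeq2 (11.1%). In edgeR 2 of 7 had an unadjusted p under 0.05, against 24.2% of all genes. Without Pdcd1f/f replicate 1 alone 3 of the 7 passed, against 21.6% of all genes. In each other fit that left out 1 library 0 of the 7 passed, against 1.51% to 3.56%. With all libraries the log2 fold changes of the 7 were all below 0, from -0.77 to -0.066, as were 7299 of the 14469 genes tested. Their median was -0.12, beside a median of -0.0026 over all genes. With the offsets 5 of the 7 were below 0, and without Pdcd1f/f replicate 1 and Pdcd1f/fLysMcre replicate 2 together 2 of the 7 were past the threshold, both lower, against 26.2% of all genes. These were Dok1 and Sipa1, a competitor of talin and a Rap1 inactivator, which fall outside the rule for named genes. Of 26 adaptors and kinases of focal adhesions and podosomes, 25 were tested, with 1 lower and 0 higher past the threshold, against 3.01% and 2.42% of all genes, and a median log2 fold change of 0.022. This balance turned with the setting, to 2 higher and 1 lower with DESeq2 (11.1% of all genes in either direction), 7 and 1 with the offsets (11.2% and 7.76%) and 6 and 3 without Pdcd1f/f replicate 1 and Pdcd1f/fLysMcre replicate 2 together (26.2% in either direction). Without Pdcd1f/f replicate 1 alone 4 passed in either direction (21.6%), and 1 passed in each other fit that left out 1 library (1.51% to 3.56%). The gene past the threshold with all libraries in edgeR was Tns1, encoding tensin-1, a link from integrin tails to actin, which fell by 0.95 on the log2 scale (adjusted p = 0.000289, edgeR), with a mean of 3390 normalized counts (SD 325) in Pdcd1f/f and 1749 (SD 142) in Pdcd1f/fLysMcre libraries. Tns1 was past the threshold in all 15 alternatives.

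Integrin ligands can be made by the macrophages themselves or come with other cells in the sort. Of 27 ligand genes 19 were tested, and 1 was higher and 3 lower past the threshold, against 2.42% and 3.01% of all genes, with a median log2 fold change of -0.12. These counts moved with the setting, with 3 higher and 3 lower in DESeq2 (11.1% of all genes in either direction), 5 and 3 with the offsets (11.2% and 7.76%) and 5 and 6 without Pdcd1f/f replicate 1 and Pdcd1f/fLysMcre replicate 2 together (26.2% in either direction). With 1 library left out, 8 passed in either direction without Pdcd1f/f replicate 1 (21.6%) and 2 without Pdcd1f/fLysMcre replicate 3 (3.56%). In each other such fit 1 passed (1.51% to 2.5%). Spp1, encoding osteopontin, a ligand of αv integrins, rose by 0.26 on the log2 scale (adjusted p = 0.0403, edgeR), from a mean of 77904 normalized counts with an SD of 1426 to 93155 with an SD of 5622. Vcam1, encoding the ligand of α4β1, fell by 0.56 on the log2 scale (adjusted p = 0.00150, edgeR). Its mean was 11281 normalized counts (SD 540) in Pdcd1f/f and 7652 (SD 525) in Pdcd1f/fLysMcre libraries, whereas the receptor chain Itga4 did not pass.

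F11r, encoding the LFA-1 ligand JAM-A, had a log2 fold change of -0.38 (adjusted p = 0.0202, edgeR), and Emilin1, a matrix ligand of β1 integrins, -0.65 (adjusted p = 0.0330, edgeR). Vcam1 passed in all 15 alternatives. With each library left out in turn, F11r and Spp1 passed in 1 of 6 fits, in both cases the fit without Pdcd1f/f replicate 1, and Emilin1 in 2 of 6, those without Pdcd1f/f replicate 1 or Pdcd1f/fLysMcre replicate 3. Spp1 did not pass with the replicate block either (adjusted p = 0.0510, edgeR). The adjusted p ranged up to 0.130 for F11r, 0.190 for Spp1 and 0.153 for Emilin1 without Pdcd1f/f replicate 2. Endothelial and stromal cells, which a sort on CD11b and F4/80 is meant to remove, also make Vcam1, Emilin1 and F11r. The 5 endothelial markers summed to 40.1 to 42.5 CPM in Pdcd1f/f and 31.95 to 34.83 CPM in Pdcd1f/fLysMcre libraries, and the difference lay in Pecam1, which was lower past the threshold (21.9 to 24.0 and 13.5 to 16.0 CPM). Kdr, at 14.4 to 14.9 and 14.2 to 15.2 CPM, and Cdh5 overlapped, with log2 fold changes of 0.017 and -0.0090. The 9 tumor and stroma markers summed to 68.6 to 73.5 and 64.2 to 72.0 CPM, with Col1a2 lower past the threshold. The log2 fold changes of Col1a1, Pdgfrb and Col3a1 were -0.78, -0.42 and -0.069, and those of Dcn, Pdgfra and Fbn1 were 0.033, 0.046 and 0.0062, none past the threshold. Lum and Thy1 had at most 17 and 12 counts and were not tested. Lum was at 0 to 0.0956 CPM in Pdcd1f/f and 0.167 to 0.339 CPM in Pdcd1f/fLysMcre libraries, without overlap and higher. The part of endothelial and stromal cells in the ligand genes was not tested.

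Of 11 membrane proteins that associate with integrins, 10 were tested, with 1 higher and 1 lower past the threshold, against 2.42% and 3.01% of all genes. The counts were 1 higher and 2 lower with DESeq2 (11.1% of all genes in either direction) and by library size alone (5.58%), 2 and 2 with the offsets (11.2% and 7.76%), and 1 and 4 without Pdcd1f/f replicate 1 and Pdcd1f/fLysMcre replicate 2 together (26.2% in either direction). With 1 library left out, 4 passed in either direction without Pdcd1f/f replicate 1 (21.6%) and 2 without Pdcd1f/fLysMcre replicate 2 (2.5%). In each other such fit 1 passed (1.51% to 3.56%). The tetraspanin gene Cd9 rose by 0.28 on the log2 scale (adjusted p = 0.0192, edgeR), with a mean of 4977 normalized counts (SD 80.1) in Pdcd1f/f and 6050 (SD 132) in Pdcd1f/fLysMcre libraries. Another tetraspanin gene, Cd81, fell by 0.60 (adjusted p = 0.00268, edgeR), from 4443 (SD 371) to 2926 normalized counts (SD 225). Cd81 passed with each library left out and Cd9 in 2 of 6 such fits, those without Pdcd1f/f replicate 1 or Pdcd1f/fLysMcre replicate 2, with an adjusted p up to 0.128 without Pdcd1f/f replicate 2.

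**Figure D5:**
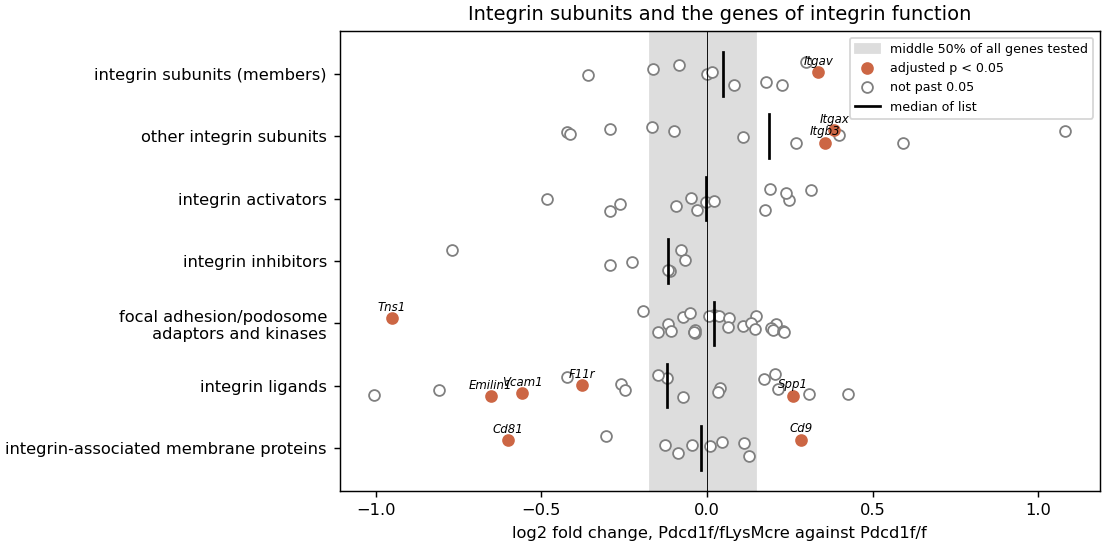
Log2 fold change (x axis) of each tested gene of the integrin subunits and of 6 further lists, filled where the adjusted p of edgeR was under 0.05, with the list's median as a line and the middle 50% of all genes, from -0.17 to 0.15, as a grey band. The subunits have a median of 0.049, and Tns1, Vcam1 and Cd81 lie farthest to the left among the filled points together with Emilin1.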

How the data were processed

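RNA-seq was performed on TAMs of 3 Pdcd1f/f and 3 Pdcd1f/fLysMcre samples. Libraries were TruSeq stranded mRNA libraries sequenced as paired-end reads of 42 nt. The authors removed adapters with cutadapt 2.5, aligned to GRCm38 with STAR 2.7.3a and counted reads per Ensembl gene with featureCounts (Subread 1.6.2), and the strand setting and the handling of multi-mapped reads are not given in the sources used here. They deposited raw counts and, for 16552 genes, a normalized signal, which here equals the count divided by 1 size factor per library (DESeq2 1.24.0 per the labels). Values called normalized counts in the text are these deposited values.

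Genotypes and replicate numbers came from the sample labels. Raw counts were compared with edgeR 4.0.16 in R 4.3.3 (filterByExpr with a minimum count of 10 and a minimum total count of 15, TMM normalization, robust quasi-likelihood fit, 2-sided test) over 14469 genes in all 6 libraries without covariates, with Benjamini-Hochberg adjustment and a threshold of 0.05. Standard errors and 95% intervals were derived from the F statistic. The script was tested on simulated counts. Alternatives were RLE size factors, library size alone, other count filters, DESeq2 1.42.0, the replicate number as a block, loess offsets (span 0.5) fitted to GC content and exon length, also together with the block, fits that leave out 1 library at a time, an adjusted p under 0.01 and, chosen after the data were seen, leaving out Pdcd1f/f replicate 1 and Pdcd1f/fLysMcre replicate 2 together. Single ratios were compared with 2-sided exact permutation tests over all 20 assignments of the genotypes (scipy 1.17.1).

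Positions, exon lengths and GC content came from GENCODE M21 for GRCm38, which covered 14454 of the 14469 genes. Annotated genes that overlap a subunit had at most 75 counts in any library, except Gm17250, which overlaps Itga6 and for which no count was used here. The subunits and the lists were chosen with earlier results of these data known. Named beside the 10 subunits were the genes of each list past the threshold, at most 5 per list, and the 3 other subunits with the highest mean count (Itga9, Itgax and Itgb3). Genes named outside this rule are said to be so in the text. The mean chi-square per gene between libraries of a genotype was 5.42 to 43.0, above sampling noise, and all were counted as separate samples.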

Additional observations from a re-analysis of the deposited data

How the results depend on the processing

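The 10 subunits were refitted under 15 alternatives. Of the 150 values, 116 kept their direction and side of the threshold, 22 kept the direction and came past it, 4 fell short of it, all of Itgav, and 8 changed sign, all of Itga4 or Itgb2, whose log2 fold changes with all libraries were -0.00026 and 0.016. With 1 library left out Itga4 ranged from -0.072 to 0.070, Itgb2 from -0.051 to 0.059 and Tln1 from -0.11 to 0.046. Without Pdcd1f/f replicate 1 and Pdcd1f/fLysMcre replicate 2 together Itga4 was at 0.080 and Itgb2 at -0.014, by library size alone Itgb2 was at -0.0012, and Tln1 was at 0.087 with GC and length offsets and at 0.086 with the block added. The number of subunits past the threshold was 1 in the main edgeR fit and 2 with DESeq2, with RLE size factors and by library size alone, 3 over all genes with at least 1 count, 6 with the offsets, 0 at an adjusted p under 0.01, 5 without this pair of libraries, and 0 to 3 with 1 library left out. Over all genes the count was 786, and 1599 with DESeq2, 1951 over all genes with at least 1 count, 2743 with the offsets, 283 under 0.01, 3757 without this pair of libraries, and 222 (without Pdcd1f/fLysMcre replicate 1) to 3181 (without Pdcd1f/f replicate 1) with 1 library left out. The cause of these shifts was not tested. The fit without this pair was chosen after the data were seen.

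The replicate numbers are not stated to pair the libraries. The deviations of libraries with the same number correlated at -0.013, -0.097 and 0.22 for replicates 1, 2 and 3. Pdcd1f/f replicate 1 correlated best with Pdcd1f/fLysMcre replicate 2, at 0.24. The deviations of these 2 libraries also followed GC content, at a Spearman rho of -0.58 and -0.49. These correlations therefore cannot decide whether the numbers pair the libraries. With the replicate block, 1027 genes and 2 subunits, Itgav and Itgb5, were past the threshold, and with the block and the offsets 2826 genes and 6 subunits. With 3 libraries a genotype, an exact permutation test of 1 gene cannot fall under 0.1, and the low counts of Pdcd1 limit any statement on its own transcript.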
